A study of Mus musculus with 4 samples.

Results

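The comparison described here sets the PU.1 binding sites of miR-155 knockout B cells beside those of wild-type B cells. Its members are the peaks on chromosomes 1 to 19 in the authors' peak lists of the 2 libraries. These were 1114 wild-type and 4094 knockout peaks, together 5208 of the 7379 peaks in the 3 lists of the series. Leaving out the sex chromosomes removed 18 wild-type and 59 knockout peaks. A peak of one list was counted as found in the other when it overlapped a peak there by at least 1 bp.

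The wild-type library came from mice of wild-type genotype and the knockout library from miR-155-/- mice. In both groups B cells were isolated from spleen by negative selection. They were stimulated ex vivo for 4 days (96 h) with lipopolysaccharide (LPS), a bacterial product that activates B cells, at 5 ug/ml and the cytokine IL-4 at 10 ng/ml. Chromatin fixed with 2% formaldehyde was sonicated and precipitated with an antibody to PU.1. The labels call each library a mix without saying what was mixed, and give no age of the mice and no further detail of the deleted allele. With 1 library for each genotype, the lists are described side by side without a test of genotype. The files give peaks and not reads, so the depth of either library is unknown.

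PU.1 is a transcription factor of the ETS family, which contacts DNA with a purine-rich GGAA core. It is needed early in the B cell and myeloid lineages, and its level falls when B cells become plasma cells. MicroRNAs such as miR-155 pair with target messenger RNAs through a short seed near their 5′ end and lower the output of those messages. miR-155 is induced when B cells are activated, and the messenger RNA of PU.1 is one of its known targets. The comparison asks where PU.1 is detected on the genome when miR-155 is missing.

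The mature strand of miR-155 that carries this seed is shown because it is the molecule absent from the knockout cells. It is written 5′ to 3′ from RefSeq (build GRCm38.p6), is 23 bases long, and has its seed (bases 2 to 8) in capitals.
mmu-miR-155-5p: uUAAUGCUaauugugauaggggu
No sequence of a peak is printed, and genes at the peaks are not named, since no mm9 genome or annotation was used here. Peak positions below are on mm9, counted from 1.

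The knockout list held most wild-type sites and many others. The number of knockout peaks was 3.68 times the number of wild-type peaks. The interval of this ratio that counting error over peaks allows is 3.44 to 3.93. Of the wild-type peaks, 1044 of 1114 were found in the knockout list (93.7%, exact 95% binomial interval 92.1 to 95.1). Of the knockout peaks, 1044 of 4094 were found in the wild-type list (25.5%, 24.2 to 26.9), which left 3050 without a wild-type counterpart and 70 wild-type peaks without a knockout counterpart. These intervals and the others below for shares and ratios are exact (Clopper-Pearson) and cover counting error over peaks, not variation between mice or libraries. Both shares count the same 1044 overlaps. No wild-type peak was shared between knockout peaks, so at most 1114 of the 4094 knockout peaks could have a counterpart. Most of the knockout list therefore had to lack a counterpart by its length, and the low knockout share is not a measure of disagreement between the lists. A site missing from a list may be bound in fewer cells, bound less in each cell or below the calling threshold at the unknown depth of that library. These cannot be told apart.

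The 2 lists met in a simple way. No wild-type peak overlapped more than 1 knockout peak, and no knockout peak overlapped more than 1 wild-type peak, so the overlaps formed 1044 pairs. Counting each pair once, the lists described 4164 separate sites. The shortest overlap of any pair was 102 bp. At the other side of the rule, the nearest knockout peak that missed a wild-type peak lay 71 bp from it, and the nearest wild-type peak that missed a knockout peak lay 1013 bp from it. No unpaired wild-type peak therefore had a knockout peak within 1000 bp.

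Peaks were paired by overlap, which itself limits the distance between their centres. The median distance between the centres of a pair was 33 bp (quartiles 15.4 to 56.6). In 987 of the 1044 pairs the centres lay within 100 bp (94.5%, 93.0 to 95.8), and the farthest were 232 bp apart. The wild-type peak lay wholly inside the knockout peak in 318 pairs (30.5%), and the knockout peak wholly inside the wild-type peak in 236 (22.6%). The knockout peak was the wider of the pair in 583 cases (55.8%, 52.8 to 58.9) and the narrower in 459 (44.0%). The median ratio of knockout to wild-type width was 1.05, with quartiles of 0.85 and 1.32.

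The scores that the authors gave the peaks were used as ranks within each list, with rank 1 the highest score. The 2 lists shared their leading site, at chr2:127834254-127835113 in the wild type, where the peak was 860 bp wide. In the knockout it ran over chr2:127834131-127835338 and was 1208 bp wide, the widest peak of that list and the one above 1000 bp. The next pair by the sum of percentiles within the 2 lists, at chr2:35351455-35351773 in the wild type, ranked 2 there and 12 in the knockout. The site at chr9:96299824-96300345 ranked 6 in the wild type and 2 in the knockout. The site at chr4:149940246-149940684 ranked 3 and 14.

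Of the remaining pairs among the 10 with the highest combined percentile, the one at chr14:103886233-103886587 ranked 4 in the wild type and 21 in the knockout, and the one at chr2:80419260-80419738 ranked 8 and 24. Ranks come from lists of 1114 and 4094 peaks: as percentiles of their list the former were 99.7 and 99.5 and the latter 99.4 in both. Those at chr5:98447132-98447484, chr18:66597358-66597871 and chr9:65382996-65383362 stood higher in the knockout, at ranks 5, 3 and 7 against 10, 12 and 15 in the wild type. The pair at chr9:48366806-48367166 had rank 9 in the wild type and 11 in the knockout. Within this leading set no site was far from the head of either list, which follows from the way the set was chosen.

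Taken list by list, the 10 highest wild-type peaks had knockout ranks between 1 and 67, with a median of 13. The 10 highest knockout peaks had wild-type ranks between 1 and 124, with a median of 15.5. Only 3 peaks were among the 10 highest of both lists. Of the 100 highest wild-type peaks, 52 were among the 100 highest of the knockout, and of the 500 highest, 295 were among the 500 highest (59.0%). All of the 100 highest wild-type peaks were called at some rank in the knockout list. Of the 100 highest knockout peaks, 96 were called at some rank in the wild-type list. Most leading sites of one list were thus called in the other, many of them outside its own leading set.

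Over all 1044 pairs the ranks of the 2 lists were related with a Spearman rho of 0.57. This is a description across sites of 2 libraries. The points share the libraries and the calling threshold, and 38.2% of wild-type and 57.5% of knockout peaks had a score tied with another peak of their list. To compare positions, the pairs were re-ranked among themselves in each list and expressed as percentiles. The median pair moved by 16.2 percentile points in either direction, and 90% of pairs moved by 45.4 points or less. A move of at least 25 points up in the knockout was seen in 164 pairs (15.7%) and a move of at least 25 points down in 186 (17.8%). Because the pairs were re-ranked among themselves, the moves sum to 0, so equal totals up and down are set by that step. The numbers of pairs past 25 points each way, 164 and 186, are not fixed by it. Both kinds were found on all 19 chromosomes.

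**Figure D1:**
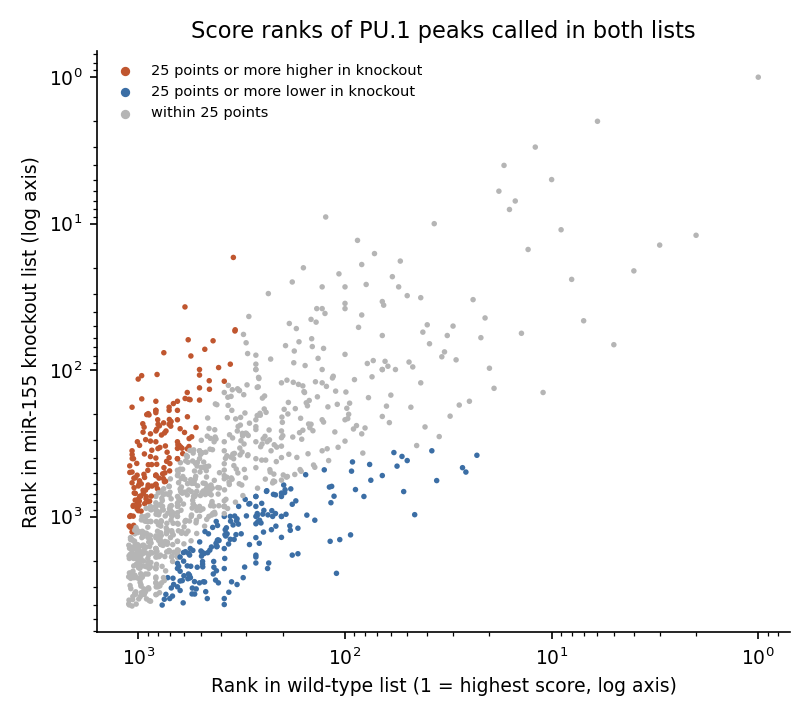
Each point is 1 of the 1044 pairs of overlapping peaks, with its rank in the wild-type list on the horizontal axis and its rank in the miR-155 knockout list on the vertical axis (both log, rank 1 at the upper right). Coloured points are the 164 pairs that stood at least 25 percentile points higher and the 186 that stood at least 25 lower in the knockout, and rho over all pairs was 0.57.

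The groups are defined by the move, so their positions are a description. The pairs that moved up had a median percentile of 24.6 in the whole wild-type list and 91.4 in the whole knockout list. Those that moved down had medians of 69.3 and 65.4 in the whole lists. Their move was thus relative to the other pairs, among which their median percentile was 67.3 in the wild type and 25.1 in the knockout. The knockout peak was the wider one in 100 of the 164 pairs that moved up (61.0%, 53.1 to 68.5). It was the wider one in 92 of the 186 that moved down (49.5%, 42.1 to 56.9). These intervals overlap, and the difference between the shares was not tested. For the 694 pairs that moved by less than 25 points the share was 56.3% (52.6 to 60.1).

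The sites with the largest moves were chosen for their difference between the lists and are given as a description. At chr1:16627579-16628042 the wild-type peak ranked 1002 of 1114, near the end of its list, and the knockout peak ranked 115 of 4094. The site at chr12:80734529-80734853 ranked 1073 in the wild type and 179 in the knockout. At chr18:36101846-36102154 the ranks were 964 and 109. The other 2 of the 5 largest moves up were both on chromosome 6, at chr6:83405340-83405634 (963 and 157) and at chr6:146623564-146623928 (1073 and 355). All 5 were among the weakest wild-type calls and among the highest-scoring 10% of knockout peaks.

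The largest move down was at chr15:33976142-33976501, which ranked 110 in the wild type and 2436 in the knockout, below the middle of that list. The knockout peak there was 227 bp wide and the wild-type peak 360 bp. At chr6:136638579-136638983 the ranks were 237 and 2258, and at chr13:54313700-54313915 they were 169 and 1791. The sites at chr12:103689689-103690057 (180 and 1830) and chr6:17638755-17639175 (106 and 1434) completed the set. In the whole lists these 5 sites stood between percentiles 78.8 and 90.6 in the wild type and between 40.5 and 65.0 in the knockout. They were still called in the knockout, and in each the knockout peak was narrower than the wild-type peak.

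Sorting each list into 10 classes of equal size by score showed where the lists parted. Among wild-type peaks, all 112 of the highest-scoring 10% had a knockout counterpart, as did all 111 of the next 10% (lower interval bounds 96.8% and 96.7%). The share then went down to 81.1% (72.5 to 87.9) in the lowest class. Among knockout peaks, the share with a wild-type counterpart was 87.3% (83.7 to 90.4) in the highest class, 56.0% (51.0 to 60.9) in the next and 35.4% (30.7 to 40.2) in the class after that. It was 19.1% (15.4 to 23.2) in the fifth class from the top and 2.44% (1.18 to 4.45) in the lowest. The knockout share was lower in each class than in the class above it. Over the whole knockout list this share is limited by the shorter length of the wild-type list.

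**Figure D2:**
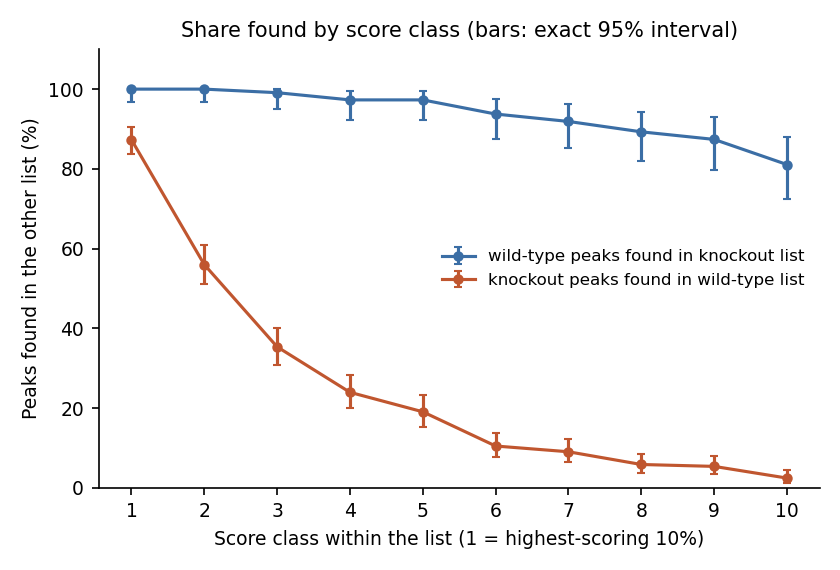
Share of peaks found in the other list (vertical axis, %) by score class within the list (horizontal axis, class 1 the highest-scoring 10%), with exact 95% binomial intervals as bars. Wild-type peaks stay between 81.1% and 100%, while knockout peaks go from 87.3% to 2.44%.

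In every wild-type class the median of the paired sites lay in the upper part of the knockout list. The highest wild-type class had a median knockout rank of 99, the second 286 and the third 383 of 4094. Even the lowest wild-type class, among its 90 paired peaks, had a median knockout rank of 1593, which is percentile 61.0 of the knockout list. The ranges were wide: knockout ranks of that class ran from 179 to 4071, and those of the highest class from 1 to 2436. Sites with the lowest scores in the wild type were therefore spread over most of the knockout list.

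The 3050 knockout peaks without a wild-type counterpart had a median rank of 2462 of 4094 (quartiles 1570 to 3300), against 684.5 for the knockout peaks with one (quartiles 284 to 1399). The 69 highest-ranked knockout peaks all had a wild-type peak, and the first without one ranked 70. Of the 100 highest knockout peaks 4 lacked a wild-type peak, of the 200 highest 12, of the 500 highest 88 and of the 1000 highest 331. The higher-scoring 50% of the knockout list held 1139 such peaks (55.6% of that part, 53.5 to 57.8) and the lower-scoring 50% held 1911 (93.4%, 92.2 to 94.4).

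The highest-ranked knockout peak with no wild-type peak was at chr6:52792537-52792922, at rank 70, and the nearest wild-type peak was 2537 kb away. It was followed by chr10:51173812-51174169 at rank 73 and by chr5:91171019-91171440 at rank 82, which lay 2071 kb and 955 kb from a wild-type peak. Next came chr6:116629565-116630094 at rank 98 and chr7:38940736-38941205 at rank 99. These first 5 sites stood above percentile 97 of the knockout list, and none was closer to a wild-type peak than the 955 kb of the third.

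The other 5 of the leading 10 ranked from 142 to 186. They lay at chr12:101260801-101261092, chr7:149628533-149628893, chr1:145763629-145763920, chr16:55589558-55589785 and chr6:37567324-37567694. The site on chromosome 7 was 17.6 kb from a wild-type peak, the closest of the 10, and the site on chromosome 1 was 4891 kb from one, the farthest. Chromosome 6 held 3 of the 10.

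On the wild-type side, the 70 peaks without a knockout counterpart had a median rank of 884 of 1114 (quartiles 735 to 1028). The 316 highest-ranked wild-type peaks all had a knockout peak. In the higher-scoring 50% of the wild-type list 7 of 557 lacked one (1.26%, 0.51 to 2.57), and in the lower-scoring 50% 63 of 557 (11.3%, 8.80 to 14.2). These peaks were spread over 18 chromosomes, and 4 of the 70 had another wild-type peak within 10 kb. Their median width was 250 bp (quartiles 216 to 339), against 316 bp (262 to 365) for wild-type peaks that had a knockout counterpart. Wider peaks overlap others more easily under the pairing rule. However, all 70 unpaired wild-type peaks lay more than 1000 bp from any knockout peak. The cause of the width difference was not tested.

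The highest of them, at chr15:73426946-73427291, ranked 317, and a knockout peak lay 1.01 kb away. The next, at chr1:186386843-186387125 and chr16:52149246-52149643, were tied at rank 384, with the nearest knockout peak 20.3 kb and 3.88 kb away. They were followed by chr6:108668891-108669140 at rank 445, 22.4 kb from a knockout peak, and chr14:52700867-52701056 at rank 494, 370 kb from one. The first 4 of these thus had a PU.1 peak of the knockout no farther than 22.4 kb away, and the fifth did not.

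The remaining 5 of the leading 10 ranked from 504 to 600 and lay at chr16:75919659-75920157, chr8:89386089-89386384, chr7:71286258-71286596, chr7:124549902-124550147 and chr13:5803928-5804176. The nearest knockout peaks were between 1.26 kb and 103 kb away. Of all 70, 15 had a knockout peak within 10 kb (21.4%, 12.5 to 32.9). Of the 1044 paired wild-type peaks, 171 had a second knockout peak within that distance (16.4%, 14.2 to 18.8). These intervals overlap, and the difference between the shares was not tested.

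Knockout peaks without a wild-type counterpart lay about as far from other wild-type peaks as the paired ones did. The median gap to the nearest wild-type peak was 384 kb (quartiles 106 to 1088). For paired knockout peaks, with their own partner left out, it was 355 kb (84.4 to 1000). A wild-type peak lay within 10 kb of 134 of the 3050 unpaired knockout peaks (4.39%, 3.69 to 5.18), and a second wild-type peak within 10 kb of 66 of the 1044 paired ones (6.32%, 4.92 to 7.97). Within 1000 bp there were 20 unpaired knockout peaks. Over 100 kb away were 76.3% of the unpaired and 73.7% of the paired. Most of the additional knockout sites were thus far from any wild-type site.

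**Figure D3:**
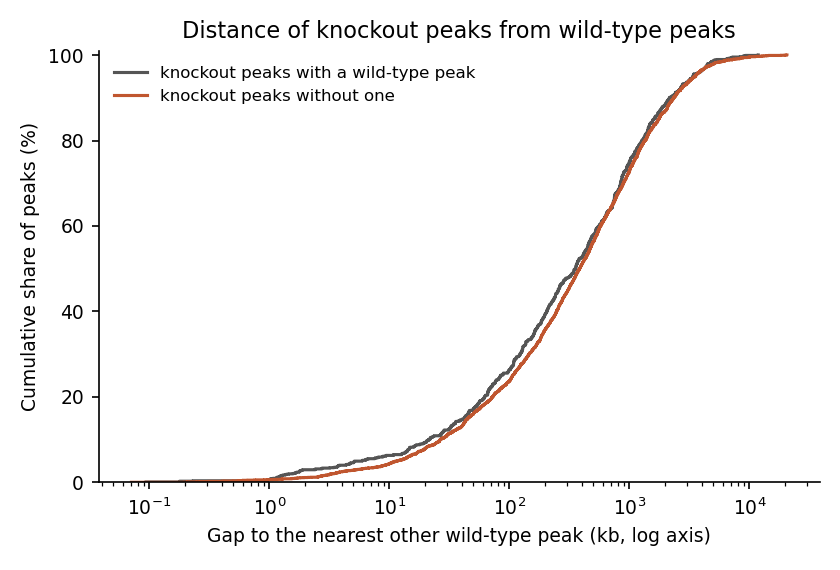
Cumulative share of knockout peaks (vertical axis, %) against the gap to the nearest wild-type peak other than their own partner (horizontal axis, kb, log). The curves for the 1044 peaks with a wild-type partner and the 3050 without one run close together, with medians of 355 kb and 384 kb.

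Within the knockout list, another knockout peak lay within 10 kb of 172 paired peaks (16.5%, 14.3 to 18.9) and of 378 unpaired ones (12.4%, 11.2 to 13.6). These intervals do not overlap, and the difference between the shares was not tested. In the whole lists the share with a neighbour of the same list within 10 kb was 13.4% in the knockout and 6.28% in the wild type. A longer list has closer neighbours by its length, and this was not corrected for.

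Ranks come from the score, and whether that score depends on peak width is not given in the labels. The overlap rule does depend on width, since a wider peak overlaps another more easily. Allowing a gap of up to 500 bp between partners left the width difference given next at 43.5 bp, and its cause was not tested. Knockout peaks with a wild-type counterpart had a median width of 332 bp (quartiles 271 to 395), and those without one 288.5 bp (239 to 339), a difference of 43.5 bp. The widest classes were those of highest score, so the widths were also set side by side within score classes. In the highest class the medians were 352.5 bp with a counterpart and 347 bp without. In the third class from the top they were 331 and 306 bp, and in the fourth 307 and 285 bp. In the lowest class they were 306 and 302 bp, the former over 10 peaks. Within a class the difference was therefore at most 25 bp, less than over the whole list.

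**Figure D4:**
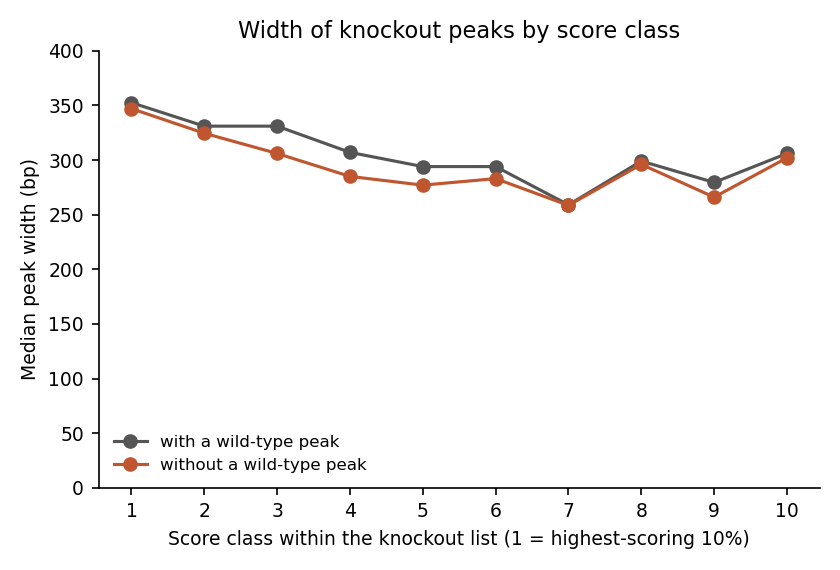
Median width of knockout peaks in bp (vertical axis, from 0) by score class within the knockout list (horizontal axis, class 1 the highest-scoring 10%), for peaks with and without a wild-type peak. In the highest class the medians are 352.5 and 347 bp, and in the lowest, where 10 peaks have a counterpart, 306 and 302 bp.

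Each of the 19 chromosomes had more knockout than wild-type peaks. The ratio of knockout to wild-type peaks ran from 2.89 on chromosome 14 (136 against 47 peaks) to 5.09 on chromosome 6 (275 against 54). It was above 3 on 17 chromosomes. Chromosome 6 was the one whose interval (3.79 to 6.95) did not hold the ratio of the whole lists, 3.68; it was 1 of 19 such intervals, each at the 95% level. Chromosome 18 had a ratio of 5.0 over few peaks, 115 against 23, with an interval of 3.18 to 8.20. At the other end stood chromosome 19 with 2.90 (142 against 49).

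Wild-type peaks had a knockout counterpart at a share between 86.0% on chromosome 17 (43 of 50, interval 73.3 to 94.2) and 100% on chromosome 18 (23 of 23, lower bound 85.2%). The share of knockout peaks with a wild-type counterpart was lowest on chromosome 6, at 18.2% (13.8 to 23.3), and highest on chromosome 19, at 33.1% (25.4 to 41.5). Chromosome 6 thus held 225 knockout peaks with no wild-type peak, as many as chromosome 2, which has 98 wild-type peaks to the 54 of chromosome 6. The extremes were picked from 19 values and carry no test. On each chromosome the knockout share is also limited by the smaller number of wild-type peaks there.

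**Figure D5:**
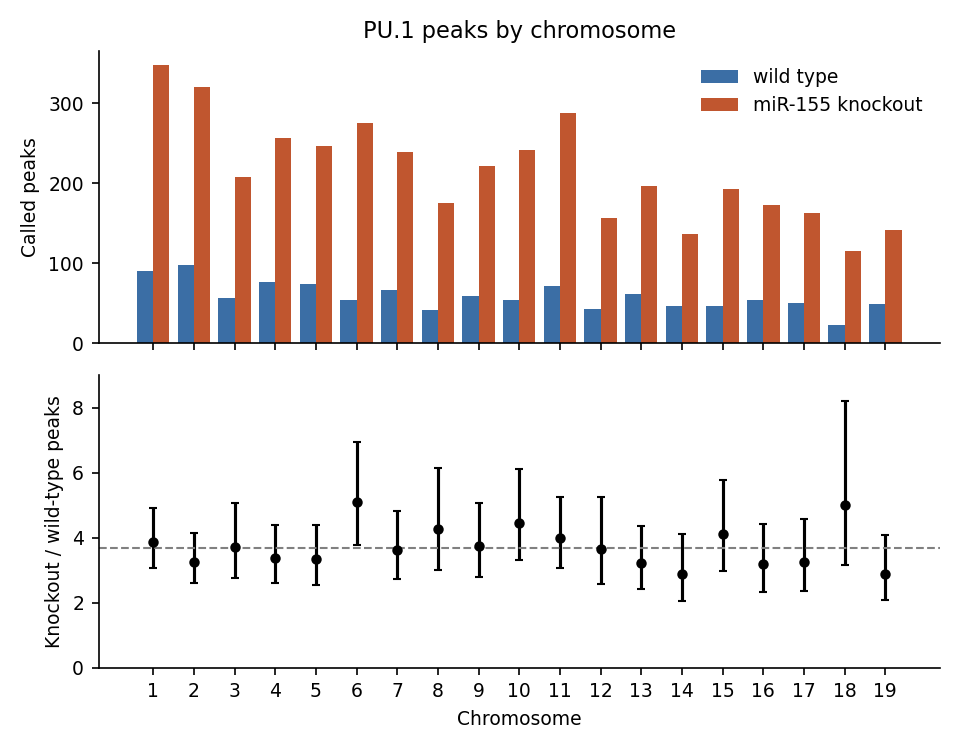
Upper panel, number of called peaks on each chromosome in the wild-type and the miR-155 knockout list. Lower panel, knockout peaks divided by wild-type peaks, with exact 95% intervals for counting error that take the lists as independent counts. The dashed line is the ratio of the whole lists, 3.68. The knockout bar is the taller on all 19 chromosomes, and chromosome 6, at 5.09, is the one whose interval lies off the line.

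In windows of 1 Mb, assigned by peak centre, 1447 windows held a peak of either list. Both lists had a peak in 737 of them (50.9%), the knockout alone in 702 (48.5%) and the wild type alone in 8 (0.55%). The windows that had no wild-type peak held 1427 knockout peaks, 34.9% of that list. More knockout than wild-type peaks were found in 1299 windows, equal numbers in 137 and more wild-type peaks in 11. The longer list reaches more windows and exceeds the other in more of them by its length, and this was not corrected for.

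The window with the largest excess, on chromosome 10 from 94000001 to 95000000, had 15 knockout and 3 wild-type peaks. All 3 wild-type peaks were paired, and 11 of the 15 knockout peaks were in the higher-scoring 50% of their list. The leading one, at chr10:94321353-94321692, ranked 25 in the knockout and was called in the wild type too, at rank 180. The highest without a wild-type peak, at chr10:94190850-94191245, ranked 187. In this window unpaired knockout peaks stood on both sides of each of the 3 paired sites.

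A window on chromosome 4 from 122000001 to 123000000 had 11 knockout peaks and 1 wild-type peak. There 10 unpaired knockout peaks, with ranks from 1543 to 3845, lay apart from the paired site at chr4:122951774-122952001, which ranked 596. The window on chromosome 1 from 163000001 to 164000000 had 14 and 5 peaks, all 5 of them paired. On chromosome 17 from 34000001 to 35000000 there were 12 and 4 peaks. All 4 wild-type peaks there were paired; they ranked from 529 to 1035 in the wild type and from 156 to 708 in the knockout. The window on chromosome 1 from 140000001 to 141000000 had 11 and 3. The last 2 of these 5 windows were among 7 with the same excess of 8 knockout peaks, and were taken from them by their number of knockout peaks and then by chromosome order.

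Windows with more wild-type peaks differed by 1 or 2. On chromosome 10 from 44000001 to 45000000 the wild type had 3 peaks and the knockout 1. The paired site at chr10:44154479-44154739 ranked 333 of 1114 in the wild type and 1034 of 4094 in the knockout, and the 2 unpaired wild-type peaks ranked 864 and 1067. Another window on chromosome 10, from 117000001 to 118000000, and one on chromosome 17 from 44000001 to 45000000 had 2 wild-type peaks and 1 knockout peak each. Their unpaired wild-type peaks, at chr10:117346343-117346485 and chr17:44324439-44324568, ranked 900 and 923. They were 2 of 10 windows with an excess of 1 wild-type peak, taken by their number of wild-type peaks.

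When the knockout list was held to its 1114 highest-ranked peaks, so that both lists had the same length, 709 peaks of each were found in the other (63.6%, 60.7 to 66.5). The other 405 knockout peaks of that shortened list had no wild-type peak at any rank. Of the 405 wild-type peaks that then lacked a partner, 335 were found further down the knockout list and 70 were not called there.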

How the data were processed

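PU.1 ChIP-seq peak lists of 1 wild-type and 1 miR-155 knockout library were compared. The tools were MACS, Bowtie and Trim Galore and the build was mm9, per the submitters' processing notes. Their versions and settings, and whether the series' input library served in peak calling, are not given in the labels. The score deposited by the authors is undefined in the labels; it started at 50 in the wild type and 50.2 in the knockout, and served here only to rank peaks within a list. The last knockout peak of chromosome 1 ends at 197028196, past the last GRCm38 gene there (195291439), so that gene table was not used to place peaks. The input and knock-in samples were not analysed here, beyond a count of the knock-in peaks.

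Starts were raised by 1. Lists were joined by overlap of at least 1 bp. Ties in score took the best shared rank within a list. Percentiles and the re-ranking of pairs used the average rank of tied peaks. Score classes split ties by position. Shares carry exact 95% Clopper-Pearson intervals. The interval of a ratio of peak numbers comes from the same method, with the 2 lists taken as independent counts. Computation was in Python 3.11.15 with scipy 1.17.1, pandas 2.3.3, numpy 2.4.6 and matplotlib 3.10.9. The overlap functions were tested on simulated data. Regions named are the 10 pairs highest in both lists, the 5 largest rank moves each way, the 10 highest peaks without a counterpart in each list, and the 1 Mb windows of largest excess (5 for the knockout, 3 for the wild type, both ending inside ties). The comparison and the lists were chosen with earlier results of these data known. Alternatives were other overlap rules, list lengths, merging, chromosomes and covered length. Depth is unknown, so only counting error over peaks is given.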

Additional observations from a re-analysis of the deposited data

How the results depend on the processing

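Of 21 alternative values, 17 stayed within the interval around the value reported and 4 did not. For rho that interval was 0.53 to 0.61, and for the width difference 33 to 52 bp. Neither is a Clopper-Pearson interval, and neither covers variation between libraries. When a pair had to overlap by 50% of both peaks, 90.1% of wild-type peaks had a knockout counterpart. Holding the knockout list to the length of the wild-type list gave 63.6% in either direction. For wild-type peaks this was down from 93.7%, since fewer knockout peaks enter. For knockout peaks it was up from 25.5%, with only the highest-ranked peaks kept. With the higher-scoring 50% of each list, rho over the pairs was 0.52; the cause was not tested. The ratio of list lengths was between 3.58 and 3.67 with covered length, merged peaks or the sex chromosomes included. The width difference was 40 to 45 bp in its 3 alternatives, 1 of them added after seeing the data. No paired analysis was possible because there is a single library on each side, which also means that none could be left out. The planned naming of genes was not carried out without an annotation of mm9. A site absent from a list may lie under the calling threshold, and without read counts this cannot be resolved.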

Other observations

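Outside the chromosomes compared, the wild-type list had 16 peaks on chromosome X and the knockout list 57, a ratio of 3.56. All 16 wild-type X peaks were found in the knockout, and 41 knockout X peaks had no wild-type peak. Chromosome Y had 2 peaks in each list, 1 of them in common.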
